A study of Mus musculus with 10 samples.

Results

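Transcript levels of Trp53, the gene of the mouse tumor suppressor p53, and of 9 genes that p53 is known to activate (Mdm2, Ccng1, Phlda3, Trp53inp1, Sesn1, Sesn2, Zmat3, Aen and Eda2r) were compared between intestinal crypts with and without the transcription factor Arid3a. The 10 genes were taken by name, with earlier results of these data known, and are 10 of 54838 genes listed in each library. Libraries of polyadenylated RNA came from jejunal crypts, 1 per mouse, of 5 WT and 5 Arid3a cKO animals. Both genotypes had received tamoxifen injections on 3 days in a row, and crypts were taken 1 month later. The cKO animals carry VillinCre-ERT2 and floxed Arid3a alleles (Arid3a fl/fl), so that tamoxifen deletes Arid3a in Villin-expressing epithelium, while stromal and immune cells keep the gene. The alleles of the WT animals, and the age, sex and strain of the mice, are not given in the sources used here. No animal was irradiated, so the values describe p53 pathway transcripts without a DNA-damaging treatment.

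p53 is a transcription factor whose protein is kept low in unstressed cells by the ubiquitin ligase Mdm2, itself the product of a p53 target gene. When DNA is damaged, kinases such as Atm, Atr, Chek1 and Chek2 release p53 from Mdm2, and p53 then activates genes that halt the cell cycle, repair DNA, change metabolism or start cell death. In the intestinal crypt, p53 is known for the death and arrest of dividing cells after irradiation. Its protein is regulated mainly through its stability, which a count of mRNA does not measure.

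The expected counts, which are the estimated reads per gene, summed to between 27050455 and 28152743 in WT libraries and to between 28314069 and 31053622 in cKO libraries. Arid3a counts were 55 to 81 in WT and 9 to 31 in cKO libraries, a log2 fold change of -1.84 (SE 0.32, adjusted p = 0.00204 by edgeR's quasi-likelihood test). Of 14719 genes with enough counts to test, 28.3% passed the threshold of an adjusted p of 0.05, 15.6% higher and 12.7% lower in cKO crypts, and 19.6% had values that did not overlap between the genotypes. The median log2 fold change over all tested genes was -0.03 and the median absolute change was 0.23. Each of 10 enterocyte markers, 10 markers of cycling cells, 5 of Paneth cells, 6 of goblet cells and 5 of epithelium was detected in every library, as were the immune and stromal markers. The enterocyte markers summed to 2107 to 9727 TPM (a level scaled for transcript length and library size) in WT and 9950 to 18920 TPM in cKO libraries, and 10 of 10 were higher. The markers of cycling cells summed to 1011 to 1274 TPM in WT and 719.7 to 825.2 TPM in cKO libraries, with 7 of 10 lower, and 4 of 5 Paneth markers were lower. Goblet markers summed to 2725 to 4926 TPM in WT and 3661 to 4488 TPM in cKO libraries, and 0 of 6 passed with edgeR and 1 with DESeq2. Epithelial markers summed to 2799 to 2988 TPM in WT and 2871 to 3349 TPM in cKO libraries, with 1 of 5 higher. Immune markers summed to 84.13 to 162.2 TPM and 37.4 to 152.2 TPM, and stromal markers to 16.67 to 61.42 TPM and 12.13 to 75.05 TPM, with 1 of 9 and 2 of 8 lower. In bulk RNA, fewer cells of a type and less RNA per cell cannot be told apart. The animals' names carry 1 prefix in WT and another in cKO. Whatever these prefixes stand for cannot be told apart from genotype.

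Promoter sequences are shown for the 4 genes with the smallest p-values, Trp53, Sesn1, Aen and Mdm2. Their counts, scaled to normalized library size, did not overlap between the genotypes, and they moved in both directions. Each sequence runs 5′ to 3′ along the coding strand from 250 bases before to 50 bases after an annotated start (RefSeq, GRCm38.p6). Capitals mark a match to the p53 response element, which consists of a pair of decamer half-sites up to 13 bases apart. A full site was searched on both strands with at most 2 mismatches, and a half-site with none. Trp53 is at chr11:69580109-69580408 on the plus strand, with a half-site at -75. Mdm2 is at chr10:117710709-117711008 on the minus strand, with a half-site at -186. Sesn1 has 2 starts on the plus strand, at chr10:41810324-41810623 without a match and at chr10:41887189-41887488 with a full site of 2 mismatches from -186 to -164. Aen is at chr7:78895677-78895976 on the plus strand, with a half-site at 11 bases into the transcript, which also lies in the promoter of its other start.
Trp53: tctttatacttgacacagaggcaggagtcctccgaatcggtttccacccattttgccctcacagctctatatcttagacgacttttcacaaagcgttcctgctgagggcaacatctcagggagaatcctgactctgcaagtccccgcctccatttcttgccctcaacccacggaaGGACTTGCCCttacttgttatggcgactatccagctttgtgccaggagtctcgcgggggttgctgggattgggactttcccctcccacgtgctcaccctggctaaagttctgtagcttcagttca
Sesn1 start 1: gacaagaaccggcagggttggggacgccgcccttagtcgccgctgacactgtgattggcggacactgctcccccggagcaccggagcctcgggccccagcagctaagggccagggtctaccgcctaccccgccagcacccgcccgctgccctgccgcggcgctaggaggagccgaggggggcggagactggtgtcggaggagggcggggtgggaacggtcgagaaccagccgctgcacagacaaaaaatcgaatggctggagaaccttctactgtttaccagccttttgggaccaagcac
Sesn1 start 2: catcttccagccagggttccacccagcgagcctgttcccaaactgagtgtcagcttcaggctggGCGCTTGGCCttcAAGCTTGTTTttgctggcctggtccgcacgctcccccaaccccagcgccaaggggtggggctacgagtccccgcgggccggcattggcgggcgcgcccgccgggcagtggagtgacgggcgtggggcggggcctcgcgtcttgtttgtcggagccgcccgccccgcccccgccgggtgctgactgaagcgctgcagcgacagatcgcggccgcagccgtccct
Aen: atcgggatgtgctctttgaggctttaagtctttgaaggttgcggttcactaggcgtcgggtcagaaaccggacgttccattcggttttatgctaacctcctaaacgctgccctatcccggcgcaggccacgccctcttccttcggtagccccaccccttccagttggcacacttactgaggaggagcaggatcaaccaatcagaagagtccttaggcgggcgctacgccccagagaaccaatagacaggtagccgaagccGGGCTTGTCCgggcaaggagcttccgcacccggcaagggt
Mdm2: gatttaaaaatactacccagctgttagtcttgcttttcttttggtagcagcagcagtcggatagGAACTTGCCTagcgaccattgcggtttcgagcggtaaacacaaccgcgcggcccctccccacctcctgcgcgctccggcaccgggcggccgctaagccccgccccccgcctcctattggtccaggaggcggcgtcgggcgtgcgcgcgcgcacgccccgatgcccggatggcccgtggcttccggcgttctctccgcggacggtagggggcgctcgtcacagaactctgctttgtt

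The table of promoters held 10 sequences for 8 of the 10 genes, and Trp53inp1 and Zmat3 had no entry. A full site was found for 2 of these 8 genes and in 4.09% of all 32851 promoters. An exact half-site was found for 5 of 8 genes, that is in 6 of their 10 promoters, and in 8.36% of all promoters. The other gene with a full site was Ccng1, a cyclin-like target of p53, whose site has 1 mismatch and lies from -195 to -176 at chr11:40755462-40755481 on the minus strand. It is shown here after its values were seen, because it was the closest match among the 10 genes (1 mismatch or fewer: 0.627% of all promoters).
Ccng1 site: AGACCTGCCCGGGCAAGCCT

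No full site without a mismatch occurred in these 10 promoters, against 0.0731% of all promoters. The half-sites were counted within full sites too, as in Ccng1 and Sesn1. Phlda3, Sesn2 and Eda2r held no match in this window. Elements outside the window were not searched, and the well-known p53 elements of Mdm2 lie in an intron, outside it. A match is a match of letters only, and binding of p53 was not measured.

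Of the 10 genes, 5 passed the threshold, beside 28.3% of all tested genes. Sesn1 and Mdm2 were higher in cKO crypts (15.6% of all tested genes were), and Trp53, Aen and Phlda3 were lower (12.7% of all). The other 5 genes (Ccng1, Trp53inp1, Sesn2, Zmat3 and Eda2r) did not pass. Fold changes were positive for 5 genes and negative for 5. Their median log2 fold change was -0.09 and their median absolute change 0.41, beside -0.03 and 0.23 for all tested genes. Values in CPM (counts scaled to the TMM-normalized size of each library) did not overlap between the genotypes for 4 of the 10 genes, beside 19.6% of all tested genes. The 10 genes thus had no common direction.

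**Figure D1:**
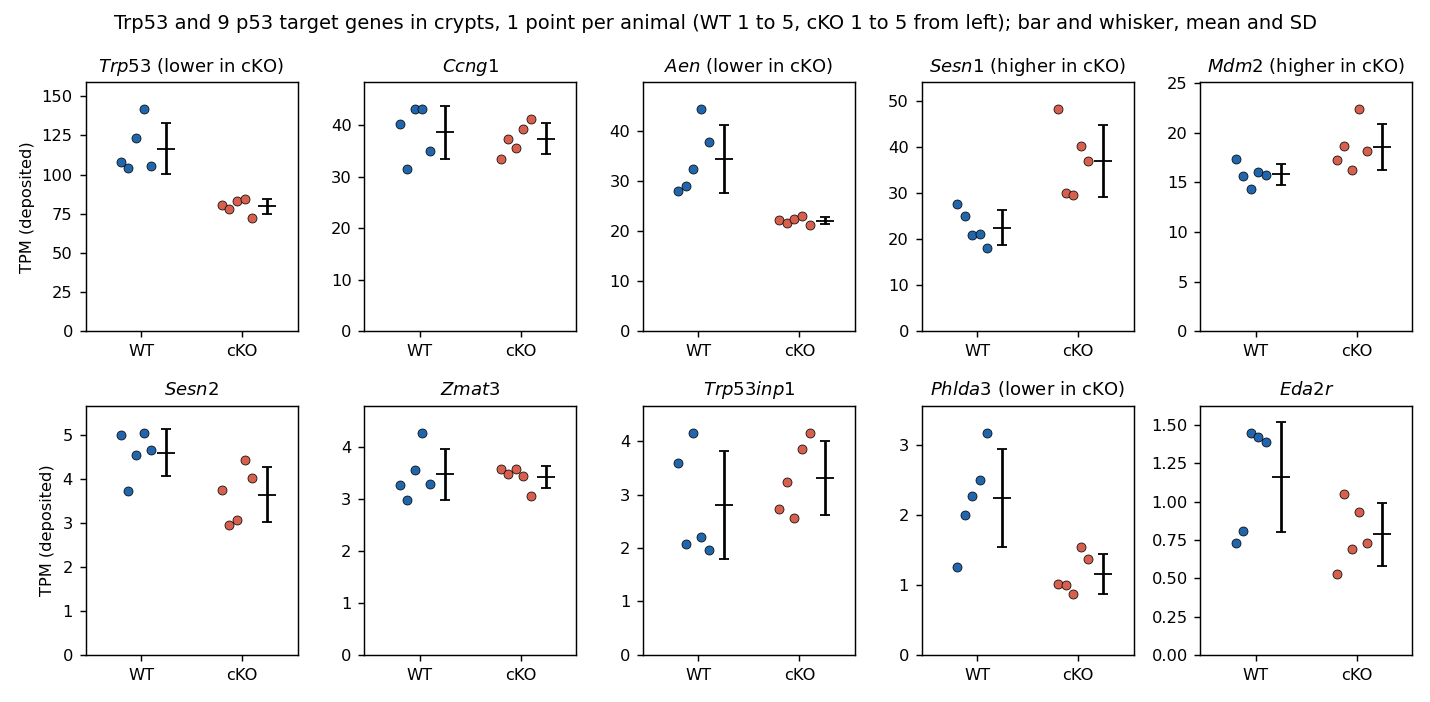
Deposited TPM (vertical axis, from 0) of Trp53 and 9 target genes in 5 WT (blue) and 5 cKO (red) animals, with bar and whisker for the mean and SD, genes ordered by their WT mean. The cKO points of Trp53 (72.21 to 84.72 TPM) and Aen (21.14 to 23.11 TPM) lie below all WT points, those of Sesn1 (29.57 to 48.28 TPM) lie above them, and those of the other 7 genes overlap.

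Trp53 mRNA was abundant and was lower in cKO crypts. The gene (ENSMUSG00000059552) lies at chr11:69580359-69591873 in GRCm38. Its CPM was 137, 140, 156, 170.5 and 152 in WT animals 1 to 5, and 111, 114, 117, 112 and 105 in cKO animals 1 to 5. Every cKO animal was below every WT animal, and the cKO values lay closer together (SD 4.44 against 13.5). The log2 fold change was -0.44 (SE 0.07), a 0.738-fold level, with an adjusted p of 0.00149 in edgeR's quasi-likelihood test. A two-sided exact permutation test of 5 against 5 gave p = 0.00794, the smallest it can give. In TPM, the mean fell from 117 ± 16.1 to 79.7 ± 4.89 (SD, n = 5 each). Markers of cycling cells were lower in the same libraries, and WT animal 4, with the highest Trp53 level, also had the highest sum of these markers (1274 TPM). Their part in the lower Trp53 level was not tested. A pseudogene, Trp53-ps, is 94.96% identical to Trp53 over 1170 aligned bases, and was assigned 31.1 to 54.3 counts per library, or 0.789% to 1.29% of the count of Trp53. No other of the 10 genes had a copy of at least 90% identity over 500 bases.

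Mdm2, the ligase that marks p53 for degradation, was modestly higher in cKO crypts. The gene (ENSMUSG00000020184) lies at chr10:117688875-117710758. Its CPM was 35.2, 31.96, 28.1, 27.9 and 31.5 in WT animals 1 to 5, and 37.6, 37.6, 35.2, 45.0 and 39.97 in cKO animals 1 to 5. The lowest cKO value (35.21) lay only just above the highest WT value (35.2), and in TPM the genotypes overlapped. The log2 fold change was 0.34 (SE 0.09, adjusted p = 0.0136 by edgeR's quasi-likelihood test). Scaled by library size alone, or on TPM, the difference was smaller (0.21 to 0.22) and did not pass (adjusted p of 0.0860 to 0.172 by edgeR and limma). The ratio of Mdm2 to Trp53 TPM, chosen after the values were seen and given without a test, had a WT mean of 0.138 ± 0.0215 and a cKO mean of 0.233 ± 0.0278 (SD, n = 5 each). It ranged from 0.1134 to 0.1602 in WT and from 0.1959 to 0.2644 in cKO libraries. Mdm4, the Mdm2 relative that blocks p53 without degrading it, had a log2 fold change of -0.04 (SE 0.07) and did not pass (adjusted p = 0.646, same edgeR test).

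Among the targets that dampen growth signals, the sestrins Sesn1 and Sesn2, which restrain the growth kinase mTORC1, had changes of opposite sign. Sesn1 (ENSMUSG00000038332, chr10:41809935-41908424) had CPM of 54.0, 52.1, 41.8, 39.7 and 39.8 in WT animals 1 to 5. In cKO animals 1 to 5 it was 102, 68.1, 64.6, 80.6 and 82.5. All cKO animals were above all WT animals, with cKO animal 1 the highest. The log2 fold change of 0.81 (SE 0.13), a 1.75-fold level, passed with an adjusted p of 0.00183 in edgeR's quasi-likelihood test (exact permutation p = 0.00794). Sesn2 (ENSMUSG00000028893, chr4:132492032-132510501) had CPM of 10.1 to 13.4 in WT and 8.55 to 11.7 in cKO animals, which overlap. Its log2 fold change of -0.24 (SE 0.12) did not pass (adjusted p = 0.136, edgeR), but did with library size as the only scaling (-0.37, adjusted p = 0.0277). The TPM ratio of Sesn1 to Sesn2, again picked after the values were seen and not tested, averaged 4.97 ± 1.14 over WT and 10.2 ± 1.58 over cKO animals (SD, n = 5 each). The difference between the changes of Sesn1 and Sesn2 was not tested. Phlda3, which blocks the kinase Akt at the membrane, was a low transcript (ENSMUSG00000041801, chr1:135766119-135769136). Its counts were 31, 62, 66, 72 and 99 in WT animals 1 to 5 and 33, 31, 28, 47 and 41 in cKO animals 1 to 5. WT animal 1 lay within the cKO range, and the other 4 WT animals lay above all cKO animals. The log2 fold change of -0.84 (SE 0.29) passed narrowly, with an adjusted p of 0.0439 in edgeR's quasi-likelihood test. The call was lost on leaving out any 1 of 8 of the 10 animals, namely WT 2, 3, 4 or 5 or cKO 1, 2, 3 or 5, with adjusted p from 0.0534 to 0.117 in edgeR, and with limma-voom (0.0761).

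Among the targets linked to cell death, Aen was lower and Trp53inp1 and Eda2r did not pass. Aen, a nuclease that cuts DNA in dying cells (ENSMUSG00000030609, chr7:78895854-78911209), had CPM of 44.4, 47.8, 48.8, 69.4 and 64.2 in WT animals 1 to 5. In cKO animals 1 to 5 it was 34.8, 38.0, 39.5, 37.6 and 35.7. All cKO animals were below all WT animals, and WT animals 4 and 5 stood well above the other 3. The log2 fold change was -0.56 (SE 0.12), a 0.676-fold level, with an adjusted p of 0.0054 in edgeR's quasi-likelihood test (exact permutation p = 0.00794). Trp53inp1, a stress protein that acts on p53 and on autophagy (ENSMUSG00000028211, chr4:11156431-11174379), ranged from 8.44 to 15.1 CPM in WT and from 11.3 to 18.5 CPM in cKO animals. WT animals 1 and 3 (14.2 and 15.1 CPM) lay within the cKO range, while the other 3 WT animals were below it. Its log2 fold change was 0.39 (SE 0.20, adjusted p = 0.170, edgeR). Eda2r, the receptor of ectodysplasin A2 on the X chromosome (ENSMUSG00000034457, chrX:97333840-97377216), had low levels, at 2.16 to 4.73 CPM in WT and 1.85 to 3.24 CPM in cKO animals. Its log2 fold change was -0.45 (SE 0.25, adjusted p = 0.190, edgeR), and the genotypes overlapped.

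The remaining targets, Ccng1 and Zmat3, were nearly level between the genotypes. Ccng1 (ENSMUSG00000020326, chr11:40748552-40755311) had 86.2 to 112 CPM in WT and 93.7 to 119 CPM in cKO animals. Zmat3, a zinc finger protein that binds RNA (ENSMUSG00000027663, chr3:32334792-32366014), had 18.3 to 23.5 CPM in WT and 19.9 to 21.9 CPM in cKO animals. Their log2 fold changes of 0.06 (SE 0.08, adjusted p = 0.640, edgeR) and 0.05 (SE 0.08, adjusted p = 0.648, edgeR) turned negative with library size alone and in TPM (-0.078 to -0.0087). Mdm2 and Sesn1 lie on chromosome 10 with Arid3a, 37.7 and 38 Mb from it. Of the wider list of p53 pathway genes described below, Perp (61.1 Mb, higher) and Gls2 (48.2 Mb, lower) also lie there. Tested genes of that list at 11, 20 and 20.1 Mb from Arid3a did not pass.

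**Figure D2:**
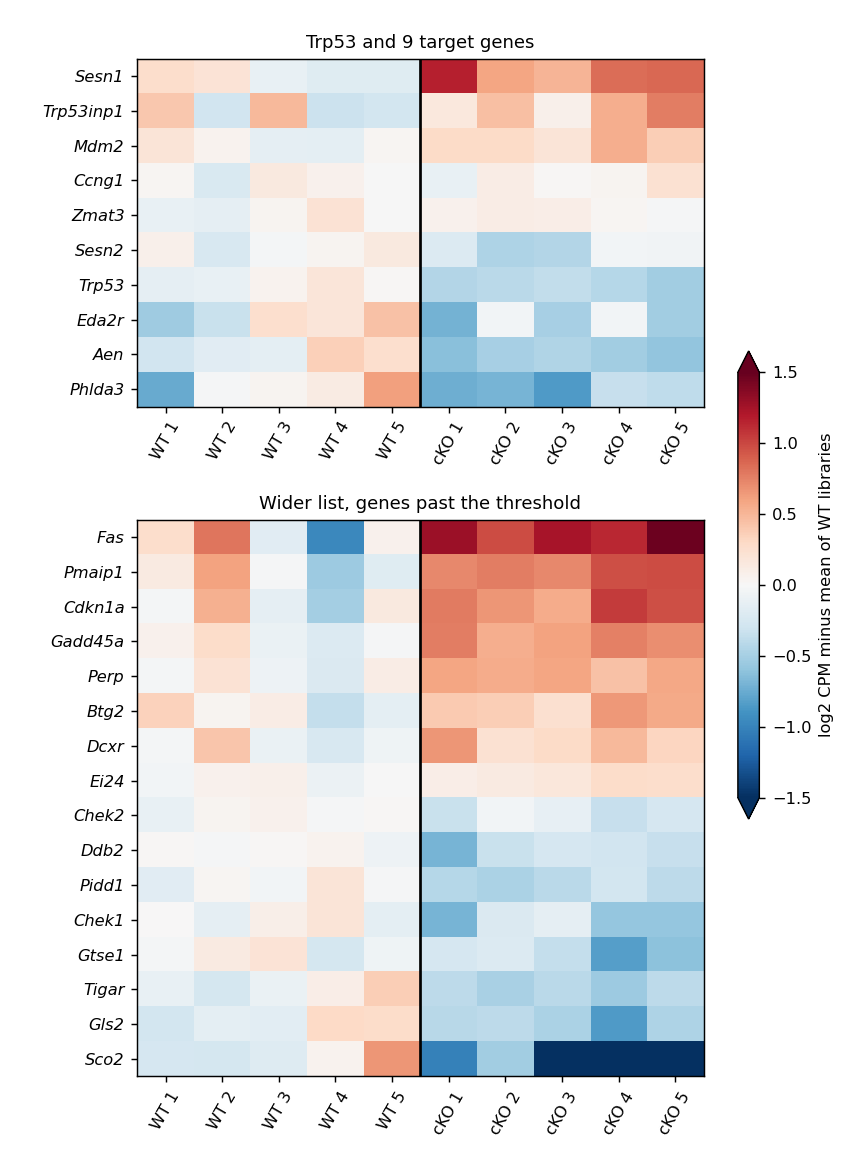
Each cell shows log2 CPM minus the mean of the WT libraries (color scale from -1.5 to 1.5) for Trp53 and 9 target genes (upper panel) and the 16 genes of the wider list past the threshold (lower panel), with WT animals left and cKO animals right of the line. Sesn1, Mdm2 and Trp53inp1 are above the WT mean in all 5 cKO animals, and Trp53, Aen, Phlda3, Sesn2 and Eda2r are below it in all 5. Of these, Trp53inp1, Sesn2 and Eda2r did not pass the threshold. WT animals 2 and 4 differ for Fas, Pmaip1 and Cdkn1a.

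Levels per length, compared as TPM, spanned 100-fold over the 10 genes in WT crypts. Trp53 led at 117 TPM, followed by Ccng1 (38.6), Aen (34.4), Sesn1 (22.5) and Mdm2 (15.8). The other 5 genes were low, with Sesn2 at 4.60, Zmat3 at 3.47, Trp53inp1 at 2.80, Phlda3 at 2.24 and Eda2r at 1.16 TPM. Ranges over the 5 WT animals overlapped between neighbors in this order for Ccng1 and Aen, and from Sesn2 down to Eda2r for each neighboring pair. Trp53 and Ccng1, Aen and Sesn1, Sesn1 and Mdm2, and Mdm2 and Sesn2 did not overlap. In cKO crypts the order was the same except that Sesn1 (37.0 TPM) stood above Aen (22.1 TPM). The mean transcript length that each gene's isoform mix implies did not pass an exact permutation test for any of the 8 genes where it varied (p adjusted over the 8 of 0.737 to 0.746), so a shift between long and short isoforms was not detected. It was constant for Ccng1 and Sesn2.

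The genes with the most similar pattern over the 10 libraries were found among 10470 genes of at least 5 CPM, by the root mean square difference of centered and scaled log2 CPM, in SD units. Both genotypes entered this pattern, so the difference between them counts toward the similarity. A near gene is therefore not evidence apart from that difference. For Trp53 they were Mcm5 (0.0873), Mcm3 (0.127) and Eftud2 (0.134). Mcm5 and Mcm3 are subunits of the replicative helicase, and Mcm5 is one of the markers of cycling cells above. For Aen they were Polr3d (0.137), Surf6 (0.151) and Adsl (0.159), and for Sesn1 they were Parp12 (0.162), Rtp4 (0.185) and Tgfbi (0.191). For Mdm2 they were Ppm1j (0.204), Slc7a15 (0.234) and Il15 (0.239). Phlda3, searched among 10471 genes, had the least similar nearest genes, Serf1 (0.289), Hmces (0.317) and Hnrnpc (0.322).

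A wider list of 58 partners, regulators and targets of p53 placed these genes in the pathway. Of its 51 tested genes, 16 passed, or 31.4% beside the 28.3% of all tested genes. There were 8 higher and 8 lower genes, the list's median was -0.04 on the log2 scale, and 11 genes did not overlap between the genotypes, a share close to the 19.6% of all tested genes. Cdkn2a, Trp63, Trp73, Ptprv, Zfp365, Dram1 and Cpt1c had too few counts to test. Changes of the genes named next are log2 fold changes of cKO over WT.

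**Figure D3:**
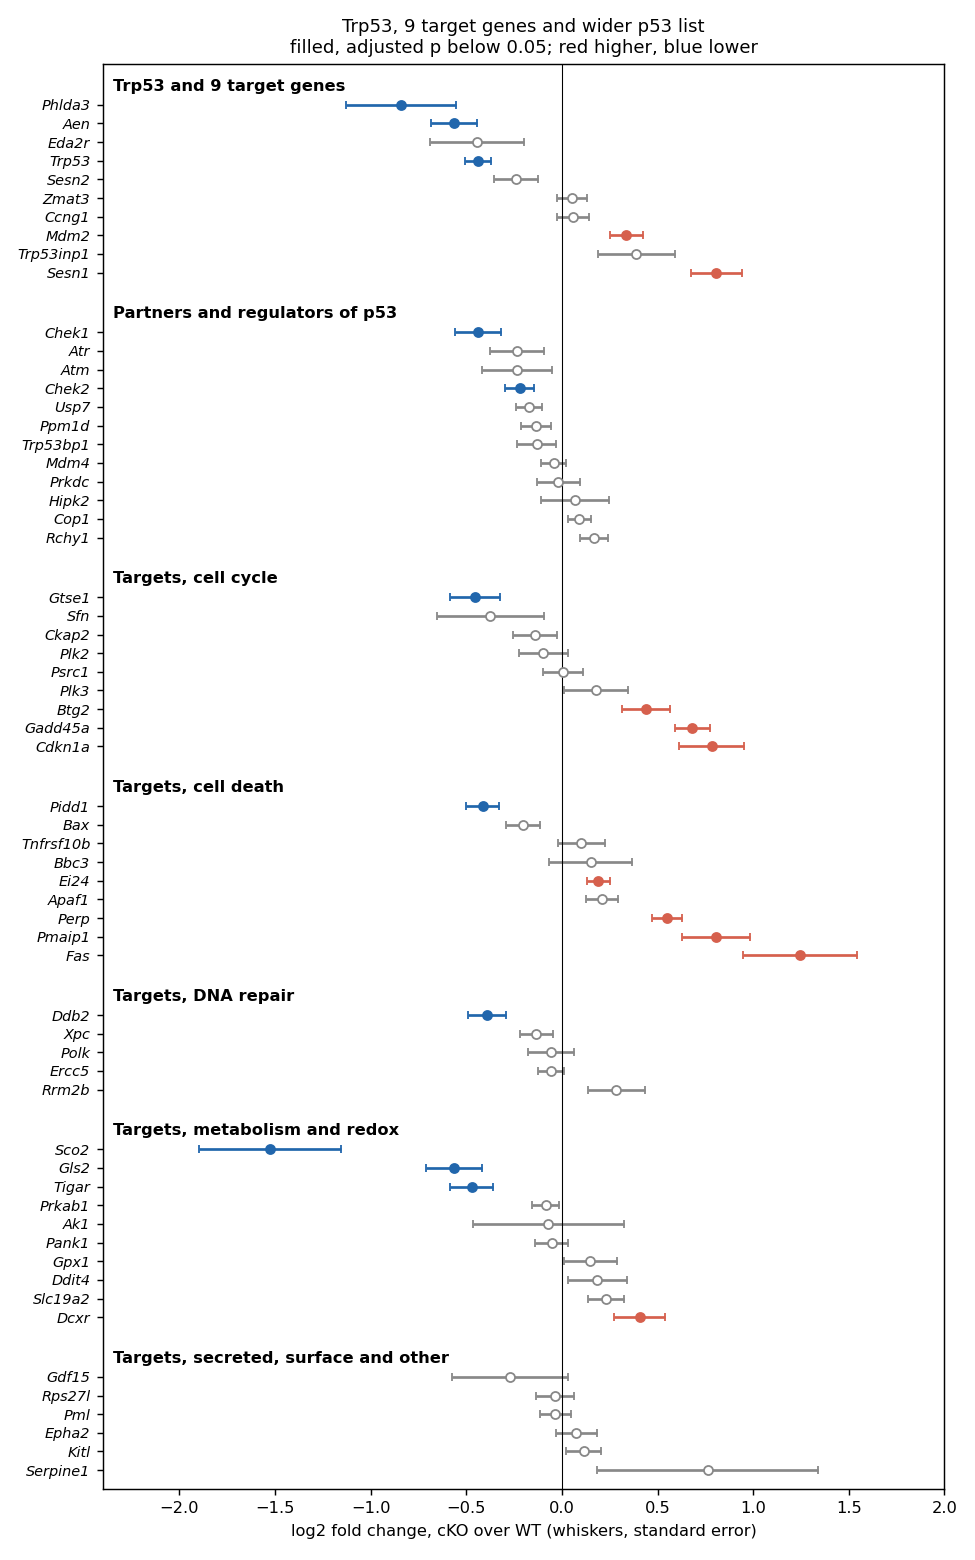
Log2 fold change of cKO over WT (horizontal axis; whiskers, standard error) for Trp53 and 9 target genes and for the 51 tested genes of the wider list by role, filled where the adjusted p is below 0.05, red for higher and blue for lower in cKO. Filled points lie on both sides of 0 in the groups for cell cycle, cell death and metabolism, from -1.53 (Sco2) to 1.25 (Fas).

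Of 12 tested partners and regulators of p53, 2 were lower and 0 higher (16.7% called, beside 28.3% of all tested genes). The 2 lower genes were the checkpoint kinases Chek1 (-0.44, SE 0.12, adjusted p = 0.0179 by edgeR's quasi-likelihood test) and Chek2 (-0.22, SE 0.07, adjusted p = 0.0434). Chek1 ranged from 23.0 to 29.0 CPM in WT and from 15.5 to 23.1 CPM in cKO animals. Chek2 did not pass on leaving out any 1 of 8 animals (WT 2, 3, 4 or 5 or cKO 1, 3, 4 or 5; adjusted p of 0.0510 to 0.110, edgeR).

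Of 9 tested cell cycle targets, 3 were higher and 1 was lower (44.4% called, beside 28.3% of all tested genes). Cdkn1a, which encodes the cyclin-dependent kinase inhibitor p21, had 38.5, 56.9, 35.7, 27.5 and 43.4 CPM in WT animals 1 to 5 and 67.7, 62.4, 58.2, 81.9 and 77.2 CPM in cKO animals 1 to 5. All cKO animals were above all WT animals in CPM, though not in TPM. Its log2 fold change was 0.78 (SE 0.17, adjusted p = 0.00741 by edgeR's quasi-likelihood test). Gadd45a, which responds to growth arrest and DNA damage, rose by 0.68 (SE 0.09, adjusted p = 0.0008, edgeR), from 21.2 ± 2.78 to 33.9 ± 2.30 CPM (SD, n = 5 each). Btg2, which slows proliferation, rose by 0.44 (SE 0.12, adjusted p = 0.0199), and lost this call without cKO animal 5 (0.0559, edgeR). Btg2 also did not pass with library size as the only scaling (0.31, adjusted p = 0.071, edgeR). In the TPM fits it did not pass either (0.34 to 0.35, adjusted p of 0.0726 to 0.154, limma). Gtse1, a G2 and S phase protein that restrains p53, was lower (-0.45, SE 0.13, adjusted p = 0.0217), but not without WT animal 3 or cKO animal 5 (0.0550 and 0.0593, edgeR).

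Of 9 tested cell death targets, 4 were higher and 1 was lower (55.6% called, beside 28.3% of all tested genes). Fas, a death receptor, had 3.34, 5.10, 2.34, 1.14 and 2.84 CPM in WT animals 1 to 5 and 7.28, 5.79, 7.03, 6.53 and 8.36 CPM in cKO animals 1 to 5. The genotypes did not overlap, and the log2 fold change was 1.25 (SE 0.30, adjusted p = 0.0103 by edgeR's quasi-likelihood test). Pmaip1, which encodes the BH3-only protein Noxa, rose from 14.4 ± 4.49 to 25.1 ± 2.38 CPM (SD, n = 5 each; log2 0.80, SE 0.18, adjusted p = 0.0077, edgeR). Perp, a desmosome protein, rose from 83.8 ± 9.72 to 123 ± 5.53 CPM (log2 0.55, SE 0.08, adjusted p = 0.00103, edgeR). Ei24, an endoplasmic reticulum protein, rose by only 0.19 (SE 0.06, adjusted p = 0.0339), and lost the call without WT animal 1 or 4 or any 1 of cKO animals 2 to 5 (adjusted p of 0.0507 to 0.0912, edgeR). The rise of Ei24 was 0.06 with library size as the only scaling (adjusted p = 0.45, edgeR). It was 0.07 in the TPM fits (adjusted p of 0.512 to 0.593, limma). Pidd1, a death-domain protein of the PIDDosome, fell by 0.41 on the log2 scale (SE 0.09, adjusted p = 0.00524, edgeR). The classic effectors of p53-driven apoptosis, Bax (-0.21, SE 0.09, adjusted p = 0.101) and Bbc3 (0.15, SE 0.22, adjusted p = 0.638), did not pass in edgeR. Bax passed as lower without WT animal 1 (-0.26, adjusted p = 0.0353, edgeR), with library size as the only scaling (-0.33, adjusted p = 0.0095, edgeR), and in both filtered TPM fits (-0.27 each, adjusted p of 0.0324 and 0.0325, limma). Bbc3, which encodes the BH3-only protein Puma, stayed at 1.07 to 2.31 CPM in all 10 animals, and its log2 fold change turned slightly negative in TPM (-0.014 to -0.015).

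The enterocyte markers were higher in the same cKO libraries, and they varied among WT animals with some of these genes. WT animal 2 had the highest WT values of Fas, Pmaip1 (21.4 CPM) and Cdkn1a and the highest enterocyte sum among WT animals (9727 TPM). WT animal 4 had the lowest of each (Pmaip1 at 9.38 CPM) and the lowest enterocyte sum (2107 TPM). The part of the enterocyte share in the higher levels of Fas, Pmaip1, Cdkn1a and the other genes was not tested.

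Of 5 tested DNA repair targets, Ddb2, the damage sensor of nucleotide excision repair, was lower (-0.39, SE 0.10, adjusted p = 0.0115 by edgeR's quasi-likelihood test) and the other 4 did not pass. The share called was 20%, beside 28.3% of all tested genes. Ddb2 overlaps Acp2 on the opposite strand (log2 0.29, adjusted p = 0.0121), and the strand setting of the counting is not given in the sources used here, so their reads may not be fully separated. Of 10 tested targets in metabolism and redox control, 3 were lower and 1 was higher (40% called, beside 28.3% of all tested genes). Tigar, a phosphatase that slows glycolysis, fell by 0.47 (SE 0.11, adjusted p = 0.00964, edgeR). Gls2, a mitochondrial glutaminase, fell by 0.57 (SE 0.15, adjusted p = 0.0146, edgeR), and overlaps Spryd4. Dcxr, a xylulose reductase, rose by 0.41 (SE 0.13, adjusted p = 0.0376), and lost the call without any 1 of WT animals 1, 3, 4 or 5 or cKO animals 1, 4 or 5 (adjusted p of 0.0617 to 0.0970, edgeR). Dcxr also did not pass with library size as the only scaling (0.28, adjusted p = 0.114, edgeR). In the TPM fits it did not pass either (0.31 each, adjusted p of 0.0903 to 0.184, limma). Sco2, an assembly factor of cytochrome c oxidase, had the largest fall of the list (-1.53, SE 0.37, adjusted p = 0.0121, edgeR), from 6.51 ± 2.15 to 2.26 ± 1.33 CPM (SD, n = 5 each). Sco2 shares its locus with Tymp on the same strand, and Tymp was higher (log2 2.26, adjusted p = 0.00306, edgeR). Ncaph2 overlaps Sco2 on the opposite strand, with a mean of 3644 counts against 125.5 for Sco2. Ncaph2 did not pass (log2 -0.099, adjusted p = 0.2275, edgeR). The division of reads among these genes is uncertain. Of 6 secreted, surface and other targets, 0 passed with edgeR, DESeq2 or limma-voom, and 0 had an unadjusted p under 0.05 with edgeR. Among them the stress cytokine Gdf15 was low, at 0.475 to 1.02 CPM in WT and 0.379 to 0.952 CPM in cKO animals (log2 -0.27, SE 0.30, adjusted p = 0.527, edgeR).

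The calls of Trp53, Sesn1 and Aen held in every one of the 12 other fits and on leaving out each of the 10 animals. Their log2 fold changes over the 12 fits ranged from -0.57 to -0.43 for Trp53, from 0.68 to 0.83 for Sesn1 and from -0.69 to -0.52 for Aen. Without TMM the median over all genes moved from -0.03 to -0.16, and in that fit Ccng1 at -0.076 and Zmat3 at -0.078 lay above that median.

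**Figure D4:**
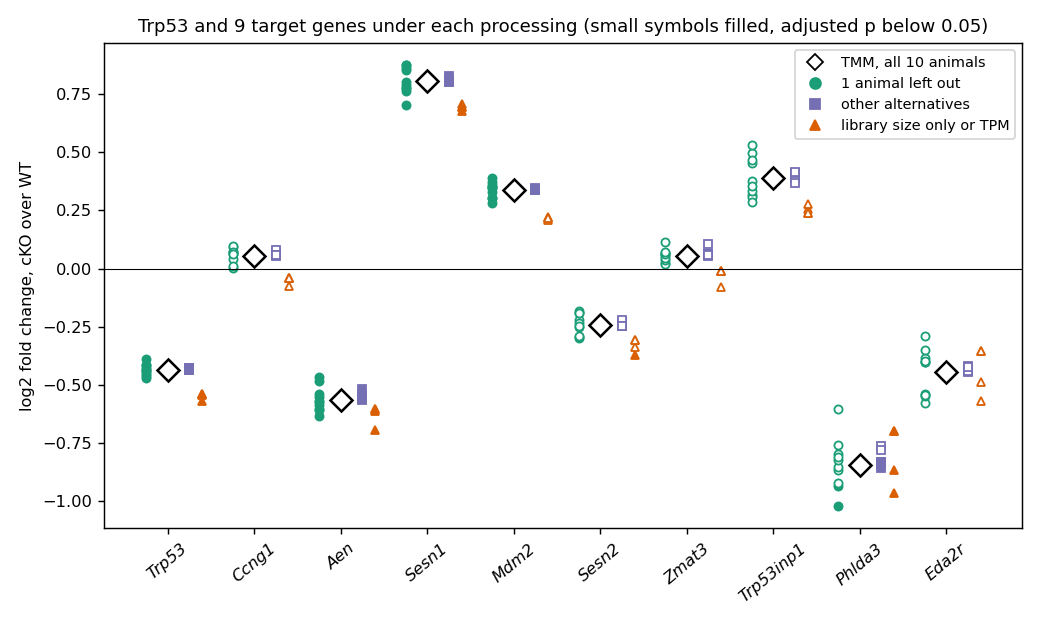
Log2 fold change of cKO over WT (vertical axis) of Trp53 and 9 target genes with all 10 animals and TMM (diamonds), with 1 animal left out (circles), under other alternatives (squares) and with library size only or TPM (triangles); small symbols are filled where the adjusted p is below 0.05. Trp53, Sesn1 and Aen stay filled throughout, Mdm2 is open in the triangles (0.21 to 0.22), and Phlda3 is open in 8 of 10 circles.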

How the data were processed

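Polyadenylated RNA of crypts, collected after the villi had been scraped off the jejunum, was sequenced from 5 WT and 5 cKO mice. Per the study's methods, reads were processed with nf-core/rnaseq version 3.0, in which STAR aligns and RSEM quantifies, against Ensembl release 95 of GRCm38. The strand setting and the versions of STAR and RSEM are not given in the sources used here. For each library the authors deposited the expected count, the TPM and the isoform-weighted length and effective length of 54838 genes, without a filter and, for the expected counts, without normalization between libraries. FPKM values were not used.

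Expected counts were rounded and fitted in R 4.3.3 with edgeR 4.0.16 (filterByExpr with minimum count 10 and minimum total 15, TMM, robust glmQLFit and glmQLFTest, genotype as the only term), with Benjamini-Hochberg adjustment over 14719 genes and a threshold of 0.05. CPM is on TMM-normalized library sizes. A CPM of 1 thus corresponds to 26.42 to 29.85 counts. The levels of Phlda3, Eda2r and Fas therefore carry more counting error than those of Trp53 or Ccng1. SE is that of the log2 fold change. Single values were compared by two-sided exact permutation tests over 252 assignments on log2(CPM + 0.5). The script was tested on simulated counts. Symbols and coordinates came from GENCODE M21 (Ensembl release 96, GRCm38), copies from BLAST 2.17.0, and promoters from RefSeq for GRCm38.p6.

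The 10 genes and the gene lists were chosen with earlier results of these data known. Named genes were Arid3a, the 10 genes, Cdkn1a, Mdm4, Bax, Bbc3 and Gdf15, every gene of the wider list past the threshold (at most 5 per role), and the 3 genes most alike to Trp53 and to each of the 10 genes past the threshold. The same results were computed with DESeq2 1.42.0, with RLE factors or plain library size in place of TMM, with no filter or a minimum of 10 counts in all libraries, without rounding, with the effective length of each gene as an offset, with limma-voom (limma 3.58.1), with limma-trend on the deposited TPM (pseudocounts 0.5 and 0.1, and no filter; otherwise at least 0.5 TPM in 5 libraries), with the replicate number as a block, and on leaving out each animal. Single-cell and chromatin data of the study were not analysed here.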

Additional observations from a re-analysis of the deposited data

Results flagged for a closer look

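In 5 of 62 sets of 5 animals (31 genes in each genotype), the highest or lowest animal stood apart from the other 4 by Dixon's 95% criterion, beside 3.1 sets that chance alone would give, and none was in Trp53 or its 9 target genes. Perp was lowest in cKO animal 4 at 113.1 CPM, with the nearest animal at 122.7 CPM. Ddb2 was lowest in cKO animal 1 at 6.98 CPM, with the nearest at 9.05 CPM. Gls2 was lowest in cKO animal 4 at 4.63 CPM, with the nearest at 6.16 CPM. Sco2 was highest in WT animal 5 at 10.22 CPM, with the nearest at 6.57 CPM. Dcxr was highest in WT animal 2 at 14.71 CPM, with the nearest at 10.69 CPM.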

How the results depend on the processing

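With library size as the only scaling, 5571 genes passed instead of 4167, 1541 higher and 4030 lower, so that 27.7% of calls were higher instead of 55.1%. Of the 10 genes, 1 was higher (Sesn1) and the median was -0.22, and of the wider list 5 were higher and 14 lower, with a median of -0.17. On TPM with pseudocount 0.5, 1389 genes were higher (33.7% of calls), with 1 of the 10 genes and 5 of the wider list higher and a wider-list median of -0.13. With pseudocount 0.1 these were 1380 (33.7%), 1, 5 and -0.14, and without a filter 1131 (37.7%), 1, 5 and -0.11. Values that changed sign were Ccng1 (-0.076 with library size only, -0.039 in each TPM fit), Zmat3 (-0.078 with library size only, -0.0087 and, with pseudocount 0.1, -0.0089 in TPM) and Bbc3 (-0.014 and, with pseudocount 0.1, -0.015 in TPM). The TMM factors, which scaling by library size only leaves out, were 1.004 to 1.083 in WT and 0.9339 to 0.9862 in cKO libraries. Why the genotypes differ in these factors was not tested, nor was the cause of the shifts in TPM.

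Same-numbered WT and cKO animals did not deviate together (correlations of -0.157 to 0.131 over genes, 1 of 5 over 0.1, and 0 of 5 animals closest to their own number). With the replicate number as a block, 3052 genes passed, 1861 higher and 1191 lower. In that block fit 5 genes of the wider list were higher, and Phlda3 (adjusted p = 0.0532), Chek2, Btg2, Ei24, Sco2 and Dcxr did not pass in edgeR. Leaving out each animal gave 3007 to 4684 genes called, 1760 to 2572 higher and 1131 to 2112 lower (fewest lower without WT animal 4, 1131). The 10 genes then gave 4 to 5 calls, 2 higher and 2 to 3 lower, with a median of -0.15 to -0.06. The wider list gave 11 to 17 calls, 5 to 9 higher (5 without cKO animal 5) and 6 to 9 lower, with a median of -0.053 to -0.0016. With the effective length as an offset, Chek2, Ei24, Tigar and Dcxr did not pass, and Phlda3 did not with limma-voom. DESeq2, RLE factors and unrounded counts changed no call of a named gene, nor did a minimum of 10 counts in every sample, which Arid3a did not meet and so had no value. Counting error weighs more on genes of under 5 CPM, such as Phlda3, Eda2r, Bbc3, Gdf15 and Arid3a.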
